A study of Mus musculus with 6 samples.

Results

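The genes described here are the mouse tubulins and the enzymes that modify them, measured as RNA in whole testis with and without the long non-coding RNA gene 1700052I22Rik. They were chosen by name only, as the protein-coding genes whose symbols belong to the alpha, beta, gamma, delta or epsilon tubulins, the tubulin tyrosine ligase-like (TTLL) family, the AGBL carboxypeptidases or the vasohibins. The rule gave 39 genes of 54532 in the deposited table, and no expression value entered it. Enough reads for a test were present for 36 of the 39, which were tested among 19320 genes in all. The 3 below the filter on low counts were the beta tubulins Tubb1, Tubb2b and Tubb4a.

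The study compared testes labelled 1700052I22Rik-KO (KO, 3 libraries) with testes labelled WT (3 libraries) by mRNA sequencing. The labels give neither strain nor age. They also leave unsaid whether each replicate is another animal, and p-values therefore refer to the spread among these libraries, which may be technical. The target had 0, 0 and 0 counts in KO 1 to KO 3, against 185, 175 and 218 in WT 1 to WT 3. Library totals lay between 17635045 and 18117593 counts. Every pair of libraries differed by more than sampling noise (chi-square per degree of freedom of at least 4.33), so each of the 6 entered as its own sample.

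The germ cell identity of the tissue was plain in its markers. The 7 markers of elongating spermatids summed to 17600, 14150 and 16050 normalised read counts scaled to library size (CPM) in KO 1 to KO 3, against 16220, 14880 and 17220 in WT 1 to WT 3. The 5 epididymis markers summed to at most 0.284 CPM in KO and 0.167 CPM in WT, with Lcn5 and Lcn8 at 0 in all 6 libraries. On a principal component analysis KO 2 and WT 1 lay far from the rest, at 30.2 and 22.8 on the first axis against -17.5 to -6.98 (26.6% of the variance). The same 2 libraries had the lowest summed level of the 7 Leydig cell markers of their genotype, with 288 CPM in KO 2 against 670 and 476 in the other KO libraries, and 257 CPM in WT 1 against 902 and 709 in the other WT libraries. Much of this lay in Cyp17a1 and Cyp11a1, and not every marker followed. Hsd3b6 was highest of the KO libraries in KO 2 (61.8 CPM), and Star was higher in KO 2 (61.6 CPM) than in KO 3 (53.2 CPM). Insl3 in WT 1 was at 78.8 CPM, against 83.8 and 82.6 CPM in WT 2 and WT 3. Several results are also given without both libraries.

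Microtubules are built from dimers of alpha and beta tubulin, and the C-terminal tails of both subunits project from the microtubule surface. Enzymes write marks on these tails. TTLL polyglutamylases add chains of glutamate, TTLL glycylases add glycine, carboxypeptidases of the AGBL family shorten the glutamate chains, and vasohibins remove the final tyrosine that most alpha tubulins carry. In the testis microtubules form the meiotic spindle, the manchette that encircles the elongating spermatid nucleus, and the axoneme of the sperm tail, whose tubulin is heavily glutamylated and glycylated. In mice, loss of the polyglutamylases Ttll1, Ttll5 or Ttll9, or of the deglutamylase Agbl5, is known to impair sperm tails or male fertility.

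The alpha tubulin isotypes found in testis differ in the codons that end their coding sequences, so the last 20 sense codons and the stop codon are shown for the isotypes on which the results turn. They were read 5′ to 3′ from the GENCODE M21 transcripts (mouse GRCm38, the mm10 build), on the coding strand, and the capitals mark the last sense codon.
Tuba3a: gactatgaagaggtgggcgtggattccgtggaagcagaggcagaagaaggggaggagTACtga
Tuba3b: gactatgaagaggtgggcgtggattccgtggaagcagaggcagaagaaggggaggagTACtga
Tuba8: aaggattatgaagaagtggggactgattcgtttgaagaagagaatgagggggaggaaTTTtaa
Tuba4a: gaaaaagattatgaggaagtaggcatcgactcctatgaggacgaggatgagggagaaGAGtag
Tuba3a and Tuba3b end in TAC, a tyrosine codon. Tuba8 ends in TTT, a phenylalanine codon, and Tuba4a in GAG, a glutamate codon, so neither of their transcripts encodes the final tyrosine that vasohibins remove. Glutamate codons numbered 8 of 20 in each of these 4 tails.

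The beta tubulin tails are shown for the leading isotype, Tubb4b, and for Tubb5, with glutamate codons in capitals, since glutamate residues of the tail are where the TTLL enzymes attach their chains.
Tubb4b: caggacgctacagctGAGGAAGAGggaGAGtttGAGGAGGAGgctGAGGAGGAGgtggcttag
Tubb5: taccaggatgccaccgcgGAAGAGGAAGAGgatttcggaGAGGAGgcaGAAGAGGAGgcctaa
The Tubb4b tail held 10 glutamate codons among 20 and the Tubb5 tail 9 of 20.

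Alpha tubulin RNA in these testes came mainly from a pair of genes, Tuba3a and Tuba3b, which encode the testis alpha tubulin of the mouse. Tuba3a lies on chromosome 6 at chr6:125278274-125286042 (minus strand) and Tuba3b on the same chromosome at chr6:145615757-145621479 (plus strand), each with 5 exons in the transcript read here. Their coding sequences differed at 41 of 1353 bases, and none of these differences changed an encoded residue. The longest stretch their transcripts shared was 179 bases, so reads can fall wholly inside shared sequence, and the sources used here do not say how the authors' counting placed such reads. The split between the pair is therefore uncertain.

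Tuba3a had 1770, 1589 and 1669 CPM in KO 1 to KO 3, against 1505, 1840 and 1829 CPM in WT 1 to WT 3. The KO values lay inside the range of the WT values, and the lowest of all 6 was WT 1. Its log2 fold change was -0.04 (SE 0.08, 95% interval -0.20 to 0.12). Tuba3b had 1928, 1798 and 1893 CPM in KO 1 to KO 3, against 1689, 2046 and 1973 CPM in WT 1 to WT 3, and again the KO range lay within the WT range. Its log2 fold change was -0.02 (SE 0.07, 95% interval -0.17 to 0.13). Without WT 1 and KO 2 the log2 fold changes were -0.09 for Tuba3a and -0.07 for Tuba3b. Neither passed the edgeR test at the Benjamini-Hochberg threshold over all genes (adjusted p = 0.977 for Tuba3a and 0.988 for Tuba3b).

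Set per kilobase of gene length, so that genes can be compared, Tuba3a stood at 1111 ± 59.97 CPM per kilobase (RPKM) in KO and 1143 ± 126 RPKM in WT (SD, n = 3 each). Tuba3b stood at 1055 ± 38.1 RPKM in KO and 1072 ± 106 RPKM in WT. By mean RPKM over the 6 libraries they ranked 16 and 18 among 15178 tested protein-coding genes. The ratio of Tuba3a to Tuba3b RPKM was 1.08, 1.04 and 1.04 in KO 1 to KO 3 and 1.05, 1.06 and 1.09 in WT 1 to WT 3, which overlapped.

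Expressed as shares of all alpha tubulin RNA per kilobase, the pair together made up 88.1%, 88.9% and 86.7% in KO 1 to KO 3, against 89.3%, 90.8% and 88.0% in WT 1 to WT 3. The difference of the means was -1.50 percentage points, about the size of the SD within a genotype (1.13 in KO and 1.38 in WT). Without WT 1 and KO 2 it was -2.03 points. A two-sided exact permutation test over the 6 libraries gave p = 0.3, and the smallest p that 3 against 3 allows is 0.1. With this test no isotype share could thus pass a threshold of 0.05.

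**Figure D1:**
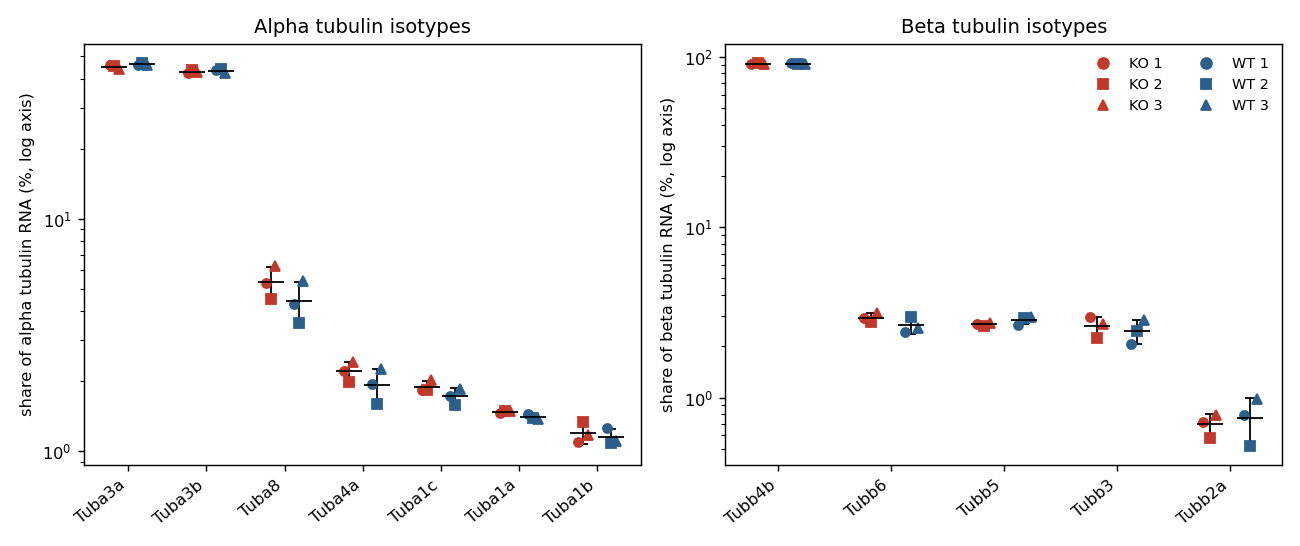
Share of each of the 7 alpha tubulins (left) and of the 5 tested beta tubulins (right) in the summed reads per kilobase of its family, in percent on a log axis. Each symbol is 1 library, KO left of WT, with the mean (bar) and SD over 3 libraries; Tuba3a and Tuba3b lead among the alpha tubulins and Tubb4b among the beta tubulins in all 6 libraries.

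Tuba8, an isotype known from muscle and testis that diverges in sequence from the other alpha tubulins, was the next most abundant. Its gene lies at chr6:121210696-121226854 (plus strand). It had 306, 237 and 355 CPM in KO 1 to KO 3, against 212, 210 and 321 CPM in WT 1 to WT 3. The libraries KO 3, WT 3 and KO 1 were high and the other 3 low, so the groups overlapped. The log2 fold change was 0.27 (SE 0.15, 95% interval -0.06 to 0.60), and it did not pass (edgeR, adjusted p = 0.965). With each library left out in turn it ranged from 0.13 without KO 3 to 0.50 without WT 3, and it was 0.32 without WT 1 and KO 2, none of them called. Its share of alpha tubulin RNA was 5.34% ± 0.882 in KO and 4.41% ± 0.914 in WT (SD, n = 3 each).

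Tuba4a, like Tuba8 an isotype whose transcript ends without a tyrosine codon, followed the same order of libraries. It had 210, 170 and 225 CPM in KO 1 to KO 3, against 157, 155 and 220 CPM in WT 1 to WT 3, with a log2 fold change of 0.18 (SE 0.13; edgeR, adjusted p = 0.965). With 1 library left out this ranged from 0.0945 without WT 2 and 0.0994 without KO 3 to 0.3694 without WT 3, none of them called. As for Tuba8, the 3 highest libraries were KO 3, WT 3 and KO 1. The ratio of Tuba8 to Tuba4a RPKM stayed between 2.28 and 2.58 in KO and between 2.21 and 2.39 in WT. Together the 2 isotypes without a final tyrosine codon held 7.48%, 6.48% and 8.68% of alpha tubulin RNA in KO 1 to KO 3, against 6.25%, 5.15% and 7.62% in WT 1 to WT 3, and the groups overlapped (two-sided exact permutation test, p = 0.3).

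The summed elongating spermatid markers were highest in KO 1 and WT 3 of their genotypes (17600 and 17220 CPM), 2 of the 3 libraries with the most Tuba8 and Tuba4a RNA. KO 3, which had the most Tuba8 of all, was at 16050 CPM for these markers, and WT 1, which was low in Tuba8, at 16220 CPM. The single markers in this sum differed. Tnp2 had 4453, 2766 and 3847 CPM in KO 1 to KO 3, against 3323, 2905 and 4205 CPM in WT 1 to WT 3. Tnp1 was likewise highest in KO 1, WT 3 and KO 3. Prm1 and Prm2 were highest in KO 1 and WT 3, Akap4 and Gapdhs in KO 2 and WT 1, and Odf1 in KO 2 and WT 2. The part of germ cell composition in the Tuba8 values was not tested, and in whole tissue fewer cells of a type and less RNA per cell cannot be told apart. Tuba4a shares its locus with Stk16 on the opposite strand, which held 28.1% as many counts, and the sources used here do not give the strand setting of the counting.

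The broadly expressed alpha tubulins were scarce beside these. Tuba1a, the main alpha tubulin of developing neurons, had 67.8, 62.5 and 67.1 CPM in KO 1 to KO 3, against 56.8, 65.5 and 65.5 CPM in WT 1 to WT 3. Tuba1b, a housekeeping isotype, had 52.7, 58.0 and 55.0 CPM in KO and 51.5, 53.2 and 54.7 CPM in WT. Tuba1c had 107, 97.0 and 116 CPM in KO and 86.2, 94.0 and 112 CPM in WT. For all 3 the genotypes overlapped, and their log2 fold changes were 0.07, 0.06 and 0.13 (edgeR, adjusted p between 0.967 and 0.977). Their shares of alpha tubulin RNA lay between 1.09% and 2.02% in every library. The share of Tuba1a was the only one of the 7 that did not overlap, at 1.48% ± 0.0128 in KO and 1.40% ± 0.0351 in WT (SD, n = 3 each). The difference was 0.0778 points, with an exact permutation p of 0.1 (two-sided), which any share without overlap gets with 3 against 3. By CPM, 9.32% of all tested genes did not overlap. Tuba1a and Tuba1b share a stretch of 281 bases, so their single values are uncertain.

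Among the beta tubulins 1 gene, Tubb4b, held over 90% of the RNA. Tubb4b (chr2:25222160-25224702, minus strand) encodes the class IVb isotype, a main beta tubulin of cilia and flagella. It had 1557, 1471 and 1518 CPM in KO 1 to KO 3, against 1498, 1595 and 1574 CPM in WT 1 to WT 3. The genotypes overlapped, and the log2 fold change was -0.04 (SE 0.06, 95% interval -0.16 to 0.08; edgeR, adjusted p = 0.976). The within-genotype coefficient of variation was 3.08%, against a median of 12.6% over all tested genes, which includes genes of far lower counts. Among genes near it in CPM, it was 3.03% for Gapdhs, 3.30% for Tcp1, 4.45% for Odf1 and 8.76% for Tuba3a. Its share of beta tubulin RNA per kilobase was 90.7%, 91.8% and 90.6% in KO 1 to KO 3, against 92.0%, 91.1% and 90.6% in WT 1 to WT 3. The means differed by -0.233 percentage points (two-sided exact permutation test, p = 0.6).

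Tubb4b reads can fall in sequence shared with a processed pseudogene on chromosome 5, Tubb4b-ps1, with which its transcript has an identical stretch of 260 bases. The table gives this pseudogene 89.8, 80.0 and 92.4 CPM in KO 1 to KO 3, against 73.5, 78.0 and 80.4 CPM in WT 1 to WT 3. Whether these reads came from the pseudogene or from Tubb4b was not tested. Counting them with Tubb4b put its share at 91.5% in KO and 91.7% in WT. The gene also overlaps Fam166a on the opposite strand, which held 12.8% as many counts.

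The other beta tubulins were minor. Tubb5, the widely expressed class I isotype, had 73.7, 66.9 and 73.4 CPM in KO 1 to KO 3, against 69.5, 81.5 and 81.9 CPM in WT 1 to WT 3. Tubb3, the class III isotype best known from neurons, had 45.4, 32.1 and 40.4 CPM in KO, against 29.9, 38.3 and 44.3 CPM in WT. Tubb6, the class V isotype, had 42.1, 37.3 and 44.1 CPM in KO, against 33.1, 43.9 and 37.4 CPM in WT. All 3 overlapped between the genotypes. Per kilobase they were close to each other, with means between 20.1 and 23.4 RPKM in either genotype and SDs of 1.16 to 3.86, so their order cannot be read beyond the spread between libraries. Tubb2a had between 7.15 and 10.2 CPM in KO and between 7.02 and 13.1 CPM in WT.

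The remaining 3 beta tubulins were at or near 0 counts. Tubb2b had 3, 6 and 2 counts in KO 1 to KO 3 and 7, 1 and 7 in WT 1 to WT 3, and its transcript has 551 bases in common with that of Tubb2a. Tubb4a, a brain isotype, had 0 counts in each KO library and 0 to 1 in the WT libraries. Tubb1, the platelet isotype, had 0 to 4 counts in the KO libraries and 0 in each WT library. Differences of this size could not be detected at this depth.

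Summed per kilobase, alpha tubulin RNA exceeded beta tubulin RNA in all 6 libraries. The ratio was 3.12, 3.03 and 3.13 in KO 1 to KO 3, against 2.80, 3.12 and 3.17 in WT 1 to WT 3, with means of 3.09 ± 0.0546 and 3.03 ± 0.201 (SD, n = 3 each). The level of this ratio depends on the gene length used. With the length of the transcript that has the longest coding region in place of the deposited gene length, it was 2.43 in KO and 2.38 in WT. It is a ratio of RNA and says nothing of the protein dimers.

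**Figure D2:**
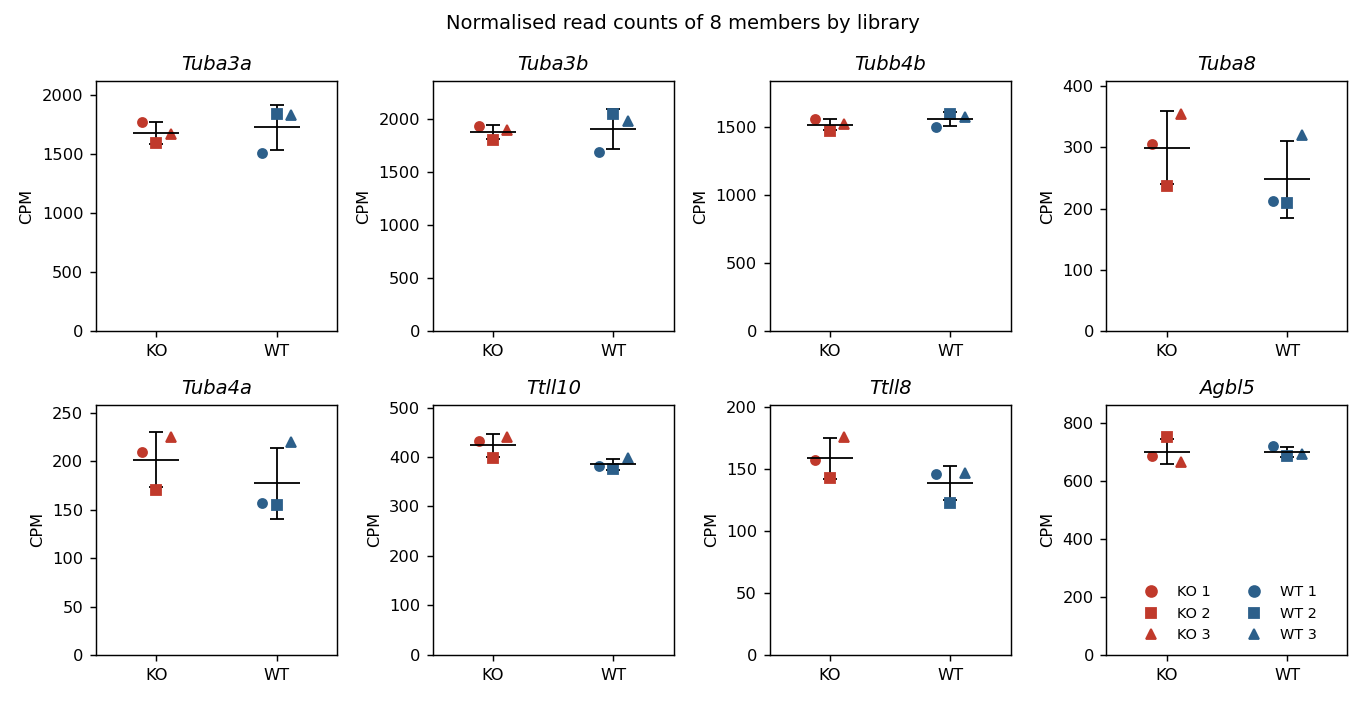
Normalised read counts (CPM, linear axes from 0) of 8 genes in each library, KO left of WT, with the mean and SD over 3 libraries. The values of Tuba3a, Tuba3b and Tubb4b overlap between genotypes, Tuba8 and Tuba4a are high in KO 1, KO 3 and WT 3, and Ttll10 is the only gene shown whose genotypes do not overlap.

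Of the tubulins outside the alpha and beta families, Tubd1 and Tubg1 had mean levels of 21.7 and 13.3 RPKM. Tube1 and Tubg2 were low, at 0.650 and 0.568 RPKM. Tubg1, the gamma tubulin of the ring complex that nucleates microtubules, had 34.4, 25.4 and 32.5 CPM in KO 1 to KO 3, against 29.8, 28.3 and 30.1 CPM in WT 1 to WT 3. Tubg2, its paralog, had 0.788, 0.794 and 1.80 CPM in KO, against 0.610, 0.724 and 1.27 CPM in WT. Tubd1, encoding delta tubulin, which is needed for the triplet microtubules of centrioles, had 45.4, 44.8 and 49.3 CPM in KO, against 43.5, 41.6 and 45.3 CPM in WT. Tube1, encoding epsilon tubulin, another centriole component, had 4.61, 5.62 and 5.39 CPM in KO, against 6.44, 4.79 and 3.74 CPM in WT. The log2 fold changes of Tubg1, Tubd1 and Tube1 lay between 0.06 and 0.10, and that of Tubg2 was 0.37 with a 95% interval from -0.55 to 1.30. Without WT 1 and KO 2 Tubg1 was at 0.20 and Tube1 at 0.23. All 4 overlapped between the genotypes and none was called.

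Polyglutamylase RNA was led by Ttll13, an enzyme that lengthens glutamate chains. Ttll13 (chr7:80246376-80260821, plus strand) had 531, 483 and 517 CPM in KO 1 to KO 3, against 472, 483 and 504 CPM in WT 1 to WT 3, and the genotypes overlapped. Its log2 fold change was 0.07 (SE 0.07; edgeR, adjusted p = 0.967). Ttll9 had 146, 146 and 142 CPM in KO, against 147, 145 and 144 CPM in WT, the most even values of all 39 genes, with a within-genotype coefficient of variation of 1.27%. Ttll6, which also lengthens chains, had 149, 164 and 137 CPM in KO, against 154, 146 and 143 CPM in WT.

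Ttll5, which starts chains mainly on alpha tubulin, had 274, 285 and 263 CPM in KO 1 to KO 3, against 278, 262 and 259 CPM in WT 1 to WT 3. Ttll11, an elongating enzyme, had 89.9, 81.5 and 88.4 CPM in KO, against 78.8, 80.1 and 86.4 CPM in WT. Ttll1, the catalytic subunit of a multi-protein polyglutamylase, had 38.2, 35.2 and 38.5 CPM in KO, against 35.2, 34.8 and 37.2 CPM in WT. The genotypes of these 3 overlapped. Ttll4 and Ttll7, which act largely on beta tubulin, had log2 fold changes of 0.0003 and -0.06. All 8 polyglutamylases had log2 fold changes between -0.06 and 0.08, with 6 above 0 and 2 below, and every 95% interval lay within 1.5-fold in either direction.

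Glycylase RNA was led by Ttll10, the enzyme that lengthens glycine chains, followed by Ttll8 and Ttll3, which start them. Ttll10 (chr4:156034840-156059414, minus strand) had 433, 398 and 440 CPM in KO 1 to KO 3, against 382, 376 and 397 CPM in WT 1 to WT 3. The lowest KO library was just above the highest WT library (397.7 against 397.3 CPM), so the groups did not overlap. Its log2 fold change was 0.14 (SE 0.07, 95% interval -0.01 to 0.28), and it did not pass (edgeR, unadjusted p = 0.0626, adjusted p = 0.965). Ttll10 was the only 1 of the 36 tested members without overlap, against 9.32% of all tested genes (4.69% with KO higher).

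Ttll8 had 157, 142 and 175 CPM in KO 1 to KO 3, against 146, 123 and 147 CPM in WT 1 to WT 3, and a log2 fold change of 0.19 (SE 0.10, 95% interval -0.01 to 0.40; edgeR, adjusted p = 0.965). With 1 library left out it ranged from 0.11 without WT 2 or KO 3 to 0.27 without KO 2, and without WT 1 and KO 2 it was 0.30 (edgeR, adjusted p = 0.429). A transcript annotated on the same strand and overlapping the Ttll8 gene, AC117700.1, held 71.3% as many counts, so reads between them cannot be assigned with certainty. Ttll3 had 54.0, 49.1 and 49.3 CPM in KO, against 51.9, 58.3 and 47.1 CPM in WT, and a log2 fold change of -0.05. It overlaps Arpc4 on the same strand, which held 40.1% as many counts.

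Summed per kilobase, the 3 glycylases reached 165, 151 and 171 RPKM in KO 1 to KO 3, against 149, 142 and 152 RPKM in WT 1 to WT 3. The 8 polyglutamylases reached 279, 273 and 271 RPKM in KO, against 267, 265 and 267 RPKM in WT. For the glycylases KO 2 was just below the highest WT library, so the genotypes overlapped. The sums of the polyglutamylases did not overlap, with the means 274 ± 4.25 RPKM in KO and 266 ± 1.25 RPKM in WT (SD, n = 3 each). Taken singly, 0 of the 8 polyglutamylases were without overlap, and of all tested genes 9.32% were. No test is given for these sums.

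The 2 TTLL genes outside these groups had mean levels of 9.63 RPKM (Ttll2) and 4.125 RPKM (Ttll12). Ttll2 had 16.5, 15.4 and 19.5 CPM in KO 1 to KO 3, against 13.8, 12.3 and 17.5 CPM in WT 1 to WT 3 (log2 fold change 0.24, SE 0.15; edgeR, adjusted p = 0.965). Ttll12, an atypical family member, had 16.1, 17.6 and 14.8 CPM in KO, against 16.3, 16.9 and 18.3 CPM in WT, with a log2 fold change of -0.09 that was -0.19 without WT 1 and KO 2. Both overlapped between the genotypes.

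**Figure D3:**
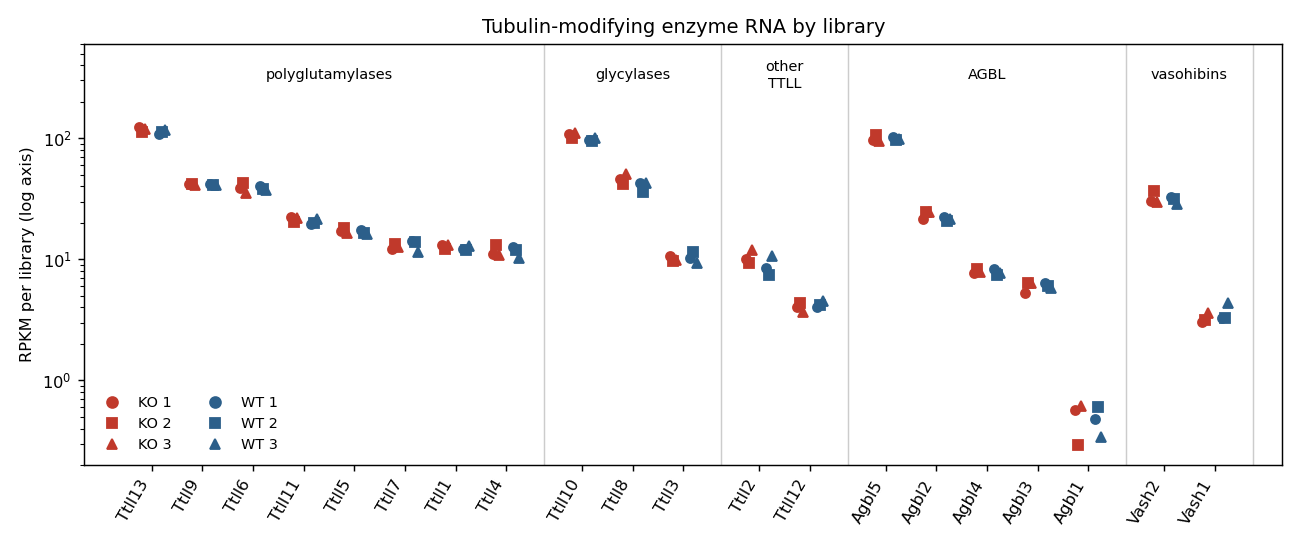
CPM per kilobase (RPKM, log axis) of the tubulin-modifying enzymes, grouped by activity and ordered by mean level within each group. Each symbol is 1 library, KO left of WT; Ttll13, Ttll10 and Agbl5 lead their groups at about 100 RPKM, and Agbl1 is lowest at 0.494 RPKM in KO and 0.472 RPKM in WT.

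Among the carboxypeptidases that remove glutamate, Agbl5 was the most abundant. Agbl5 encodes the enzyme that removes the branch point glutamate. Its gene (chr5:30888694-30906965, plus strand) had 685, 750 and 666 CPM in KO 1 to KO 3, against 719, 684 and 693 CPM in WT 1 to WT 3, a log2 fold change of 0.0032 (SE 0.07, 95% interval -0.14 to 0.14). Agbl2 had 143, 164 and 163 CPM in KO, against 150, 138 and 144 CPM in WT, with a log2 fold change of 0.12. Agbl4, which shortens glutamate chains, had 73.7, 80.4 and 75.5 CPM in KO, against 79.7, 71.6 and 73.5 CPM in WT. Agbl3, which also shortens them, had 59.3, 71.4 and 71.2 CPM in KO, against 71.0, 67.8 and 64.8 CPM in WT. Their log2 fold changes were 0.03 and -0.01, and Agbl1 was scarce at 2.48 ± 0.874 CPM in KO and 2.37 ± 0.651 CPM in WT (SD, n = 3 each). The log2 fold change of Agbl1 was 0.07, and 0.34 without WT 1 and KO 2. All 5 overlapped between the genotypes.

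Vash2, 1 of the 2 vasohibins, had 131, 157 and 129 CPM in KO 1 to KO 3, against 141, 135 and 125 CPM in WT 1 to WT 3. Vash1 was far lower, at 7.88, 8.17 and 9.43 CPM in KO, against 8.49, 8.47 and 11.3 CPM in WT. Per kilobase Vash2 was at 32.2 ± 3.59 RPKM in KO and 30.9 ± 1.90 RPKM in WT, against 3.27 ± 0.317 and 3.62 ± 0.624 RPKM for Vash1 (SD, n = 3 each). Svbp, the small partner protein that both need, had 145, 135 and 119 CPM in KO and 139, 133 and 138 CPM in WT. Ttl, the ligase that restores the tyrosine, was scarce at 1.39 ± 0.247 CPM in KO and 1.77 ± 0.463 CPM in WT.

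The order of the enzymes per kilobase depends on the length taken for each gene, since the deposited lengths of Ttll5 (15875 bases) and Agbl5 (7053 bases) far exceed the transcripts with their longest coding regions (5081 and 3199 bases). By the transcript length, Agbl5 had the highest level of all the enzymes (219 RPKM), followed by Ttll13 (165 RPKM) and Ttll10 (158 RPKM), and Ttll5 was at 53.2 RPKM in place of 17.0. Comparisons of KO with WT within a gene do not depend on length.

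Over the whole set, no tubulin or tubulin-modifier gene passed the test between KO and WT testes. Of the 36 tested members 0 were called in edgeR, where 0.00518% of all tested genes were called, a single gene, the target itself. DESeq2 called 0 members and 0.0104% of all genes, and limma-voom 0 members and 0.00518%. Unadjusted p-values of the members began at 0.0626, so 0 lay under 0.05, where 4.63% of all tested genes did. Adjusted p-values in edgeR lay between 0.965 and 0.9999. The log2 fold changes ran from -0.16 for Tubb2a to 0.37 for Tubg2, with 25 above 0 and 11 below, where 49.3% of all tested genes lay above 0. Their median was 0.06, against -0.0025 over all tested genes, and it was 0.02 without KO 2. For each library, the median was also taken of the members' log2 differences from their WT means. It was 0.0339, 0.0022 and 0.0801 in KO 1 to KO 3, against -0.0163, -0.0198 and 0.0484 in WT 1 to WT 3, so the genotypes overlapped. Beside the members, 6 of 7 round spermatid markers had a log2 fold change above 0, with sums of 1605 to 1710 CPM in KO and 1505 to 1624 CPM in WT. Of 7 elongating spermatid markers 3 lay above 0 and 4 below, and of 7 spermatocyte markers 5 and 2. For 7 spermatogonia markers the counts were 2 and 5, and for 8 Sertoli markers 2 and 6. Endothelial markers had 2 above 0 and 4 below, tested peritubular markers 2 and 2, and tested neuron and glia markers 2 and 1. All 8 macrophage markers lay below 0, with sums of 82.9 to 95.4 CPM in KO and 93.3 to 124 CPM in WT, and so did all 7 Leydig cell markers, with sums of 288 to 670 CPM in KO and 257 to 902 CPM in WT. Among the Leydig cell markers only Insl3 did not overlap, as for 9.32% of all tested genes. It had 55.6, 17.4 and 55.0 CPM in KO 1 to KO 3, against 78.8, 83.8 and 82.6 CPM in WT 1 to WT 3. Its log2 fold change was -0.94 (edgeR, unadjusted p = 0.0039, adjusted p = 0.965). None of these markers was called or at 0 in all libraries, and the part of cell composition in the members' values was not tested.

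For 32 of the 36 tested members the 95% interval of the fold change lay within 1.5-fold in either direction, as it did for 61.6% of all tested genes. The latter were not matched to the members by read count. The 4 exceptions were Tuba8, Tubb2a, Tubg2 and Agbl1, and for Tubg2 alone the interval also reached beyond 2-fold.

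**Figure D4:**
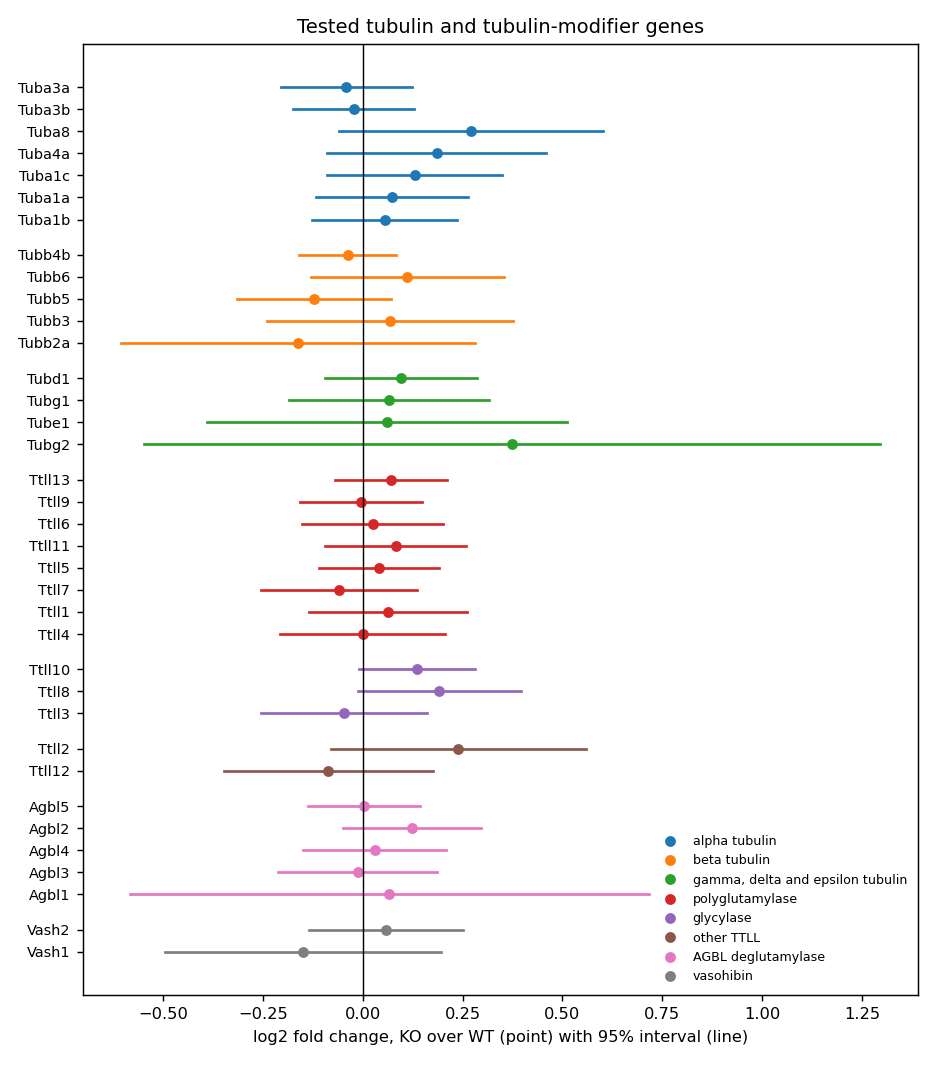
Log2 fold change of KO over WT (points) with 95% intervals (lines) for the 36 tested genes, coloured by group. Every interval includes 0, and the widest belong to Tubg2 and Agbl1, at about 1 and 2.4 CPM.

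Genes that fold, nucleate, sever or otherwise serve tubulin were read beside the set, and 0 of them were called. Of 23 genes for tubulin folding, 9 had log2 fold changes above 0 and 14 below, with a median of -0.01. Tbcc, encoding the folding cofactor that triggers GTP hydrolysis on the new dimer, was the only one with an unadjusted p under 0.05. It had 64.7, 53.7 and 56.4 CPM in KO 1 to KO 3, against 64.8, 70.8 and 71.2 CPM in WT 1 to WT 3, a log2 fold change of -0.24 (edgeR, unadjusted p = 0.0201, adjusted p = 0.965). The highest KO value and the lowest WT value were nearly equal. Tbcel, a cofactor-like gene that destabilises tubulin, had 83.8 ± 4.76 CPM in KO and 75.8 ± 0.925 CPM in WT (SD, n = 3 each), with a log2 fold change of 0.14.

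The 18 genes of the gamma tubulin ring and the augmin complex had a median log2 fold change of 0.03, with 12 above 0 and 6 below. For 8 tested severing genes, among them the katanin subunits and spastin, the median was also 0.03. The 11 modifiers and partners outside the name rule had a median of 0.0046. In that list Agtpbp1, the founding member of the deglutamylase family, whose loss in mice makes males infertile, had 242, 266 and 249 CPM in KO 1 to KO 3, against 248, 215 and 223 CPM in WT 1 to WT 3 (log2 fold change 0.14; edgeR, adjusted p = 0.965). Atat1, which acetylates alpha tubulin, had 32.2 ± 1.58 CPM in KO and 31.9 ± 0.588 CPM in WT. Tpgs2, a subunit of the Ttll1 complex, had 288 ± 13.0 CPM in KO and 287 ± 4.63 CPM in WT. Of the same list 6 genes lay above 0 and 5 below. Tpgs1 was at 23.0 CPM in KO and 26.8 CPM in WT, a log2 fold change of -0.22 (edgeR, unadjusted p = 0.0661, adjusted p = 0.965). Hdac6 was at 60.1 CPM in KO and 67.8 CPM in WT, a log2 fold change of -0.17 (edgeR, unadjusted p = 0.0699, adjusted p = 0.965). Both overlapped between the genotypes.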

How the data were processed

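Whole testis RNA of 3 KO and 3 WT samples was sequenced as mRNA libraries. The authors deposited a table of raw counts for each Ensembl gene and library, which also lists symbols, positions and gene lengths, per the file headers. HISAT2 2.0.0 and the mm10 build are named in the submitters' processing notes. Which counting tool, annotation release and strand setting were used is not given in these sources. All 39 members were found in GENCODE M21, 38 with the same coordinates.

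Genes were kept with filterByExpr (minimum count 10, minimum total 15) and scaled by TMM. KO was compared with WT by edgeR 4.0.16 (glmQLFit and glmQLFTest, no covariate, threshold 0.05 after Benjamini-Hochberg adjustment over 19320 genes) in R 4.3.3. The fit's common BCV, the biological coefficient of variation, was 0.112. CPM are TMM-scaled and RPKM divide them by the deposited gene length. Alternatives used limma 3.58.1, DESeq2 1.42.0, other scalings and filters, a replicate block and omitted libraries. The 95% intervals come from that model. By the naming rule, values are given per library for up to 4 members of each role group with the highest RPKM, for members with an unadjusted p under 0.05 or without overlap, and as a range for members below 0.1 CPM. In other lists it names genes with an unadjusted p under 0.05. Any further gene was picked with its values in view. The members and lists were chosen with earlier results of these data known.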

Additional observations from a re-analysis of the deposited data

How the results depend on the processing

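In all 15 alternatives 0 tubulin or tubulin-modifier genes were called. The smallest adjusted p of a named gene was 0.203, for Tuba8 with no low-count filter. Over all genes, 50 were called with no low-count filter, 2 by DESeq2, 9 without WT 1 and KO 2 together, and 1 to 3 with 1 library left out (3 without WT 2, 2 without WT 3 and 2 without KO 3), against 1 in edgeR. The median log2 fold change of the members ran from 0.0201 (without KO 2) to 0.0504 with 1 library left out. The share differences and the ratio moved by less than 1 SD, pooled over both genotypes. With 1 library left out, the difference for Tuba3a and Tuba3b together ran from -2.17 to -0.796 points, for Tubb4b from -0.607 to 0.152 points and for the alpha to beta ratio from -0.0544 to 0.132, which was -0.0230 without WT 1 and KO 2. The use of transcript lengths, and of Tubb4b-ps1 with Tubb4b, was chosen after seeing the data.

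Of 583 log2 fold changes recomputed for 39 genes, 38 changed sign, in 17 genes, all by at most 0.133 from 0 and none called. These 39 genes were the 36 tested members, Tbcc, Tbcel and Agtpbp1. Under scaling by library size alone Agbl5 had -0.0088 and Ttll4 -0.0113, under upper quartile scaling Ttll9 had 0.0015, and with no low-count filter Ttll4 had -0.0010. Without WT 1 and KO 2 the values were -0.0241 for Agbl5, 0.0021 for Ttll9, -0.0081 for Ttll6 and -0.0144 for Ttll4. With 1 library left out the log2 fold changes ran from -0.0440 to 0.0378 for Agbl5, -0.0033 to 0.0763 for Agbl4, -0.0550 to 0.0725 for Agbl3, -0.1222 to 0.3367 for Agbl1, -0.1306 to 0.0062 for Tuba3a and -0.1017 to 0.0311 for Tuba3b. They ran from -0.0721 to 0.2053 for Tubb3, -0.3636 to 0.0818 for Tubb2a, -0.0213 to 0.1909 for Tubg1, -0.1086 to 0.2867 for Tube1, -0.1325 to 0.7500 for Tubg2 and -0.1173 to 0.0364 for Ttll3. They also ran from -0.0100 to 0.0076 for Ttll9, -0.0381 to 0.0854 for Ttll6, -0.0828 to 0.0705 for Ttll4, -0.0326 to 0.1098 for Vash2 and -0.2310 to 0.0026 for Vash1. The cause was not tested. The labels do not say whether the replicate numbers pair the libraries. Deviations of same-numbered KO and WT libraries correlated at -0.173, -0.0289 and 0.114, which cannot decide it with 3 libraries per genotype. A fit that blocked on the replicate numbers called 1 gene over all genes and 0 members, with a members' median of 0.0546.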
